A study of Saccharomyces bayanus x Saccharomyces cerevisiae with 8 samples.

Results

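The genes of protein glycosylation were followed as 38 listed ORFs that cover the assembly of the dolichol-linked oligosaccharide (the ALG enzymes and their partners), the oligosaccharyltransferase, the trimming of the transferred glycan, the mannosyltransferases of the Golgi and the protein O-mannosyltransferases (PMT). They were matched by systematic ORF name to a table of 4238 ortholog pairs, and 29 of the 38 were in it. These were 11 of 15 assembly genes, 6 of 8 oligosaccharyltransferase genes, 3 of 3 trimming genes, 8 of 9 Golgi mannosyltransferases and 1 of 3 O-mannosyltransferases. YBL082C, YBR243C, YNL048C, YBR070C, YOR103C, YGL226C-A, YER001W, YDL095W and YDL093W were not analysed here. The deposited table names each ortholog pair by its ORF name and gives no standard gene names, so the genes are called by their ORF names and described by the class in which they were listed.

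Expression came from OZY27, a diploid hybrid yeast that holds 1 genome of Saccharomyces bayanus, derived from CBS 4001 and carrying ade2, his3 and lys2 mutations, and 1 genome of Saccharomyces cerevisiae, isogenic to W303 and carrying his3, leu2, lys2, trp1 and ura3 mutations. Log-phase cells were taken from 2 biological replicate cultures kept at 25 °C in the rich glucose medium YPD, and total RNA of each gave 1 Illumina library. Culture 1 was sequenced in 5 lanes (6 and 8 at UCR; 1, 2 and 5 at UCB) and culture 2 in 3 lanes (7 at UCR; 3 and 4 at UCB). Both alleles of a gene were read in the same cells and library, so the comparison is between what each genome contributes to the transcripts of a gene in a shared nucleus. All values come from 1 hybrid strain, and species differences cannot be told apart from differences between these particular parents. Each lane held between 2350222 and 3159446 counted reads, and 14707025 reads were summed for culture 1 and 8223099 for culture 2. The glycosylation genes took 127366 reads of culture 1 and 87333 of culture 2. They were well covered, with a median of 6382 reads per gene against 2673 over all genes tested. Of 11 listed genes that haploid cells express and diploid cells repress, 8 were in the table. Their levels ran from 0.424 to 43.2 reads per kilobase per 1000000 reads, below the median of 90.8 over all genes.

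N-linked glycosylation begins at the membrane of the endoplasmic reticulum, where sugars are added stepwise to the lipid dolichol and the finished oligosaccharide is handed to asparagines of nascent proteins by the multi-subunit oligosaccharyltransferase. Glucosidases and a mannosidase then trim the glycan, which takes part in the folding control of the protein, and in yeast the Golgi mannosyltransferases extend it into the long mannan chains of the cell wall. Protein O-mannosyltransferases use a dolichol-linked mannose to modify serines and threonines, so both kinds of glycosylation draw on the same lipid carrier.

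The level of each allele was expressed as reads per kilobase of mappable length per 1000000 reads of that genome, which allows genes to be compared. Over both alleles and cultures the glycosylation genes had a median level of 174, against 91.9 over all genes tested. The range ran from 51.3 for the trimming gene YJR131W to 1220 for the assembly gene YPR183W. Of the 6 oligosaccharyltransferase subunits, 5 lay between 407 and 564, and YML019W had a level of 106. Assembly genes other than YPR183W lay lower, between 57.1 for YGR227W and 198 for YNL219C. Golgi mannosyltransferases ranged from 61.1 for YGL038C to 418 for YBR015C, and the O-mannosyltransferase YJR143C had a level of 412. Neighbours in this order could differ by less than the spread between cultures. The S. bayanus allele of the oligosaccharyltransferase gene YGL022W averaged 570 ± 52.2 and its S. cerevisiae allele 557 ± 57.7, while the corresponding alleles of YMR149W averaged 513 ± 87.4 and 477 ± 55.9 (SD, n = 2 cultures).

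**Figure D1:**
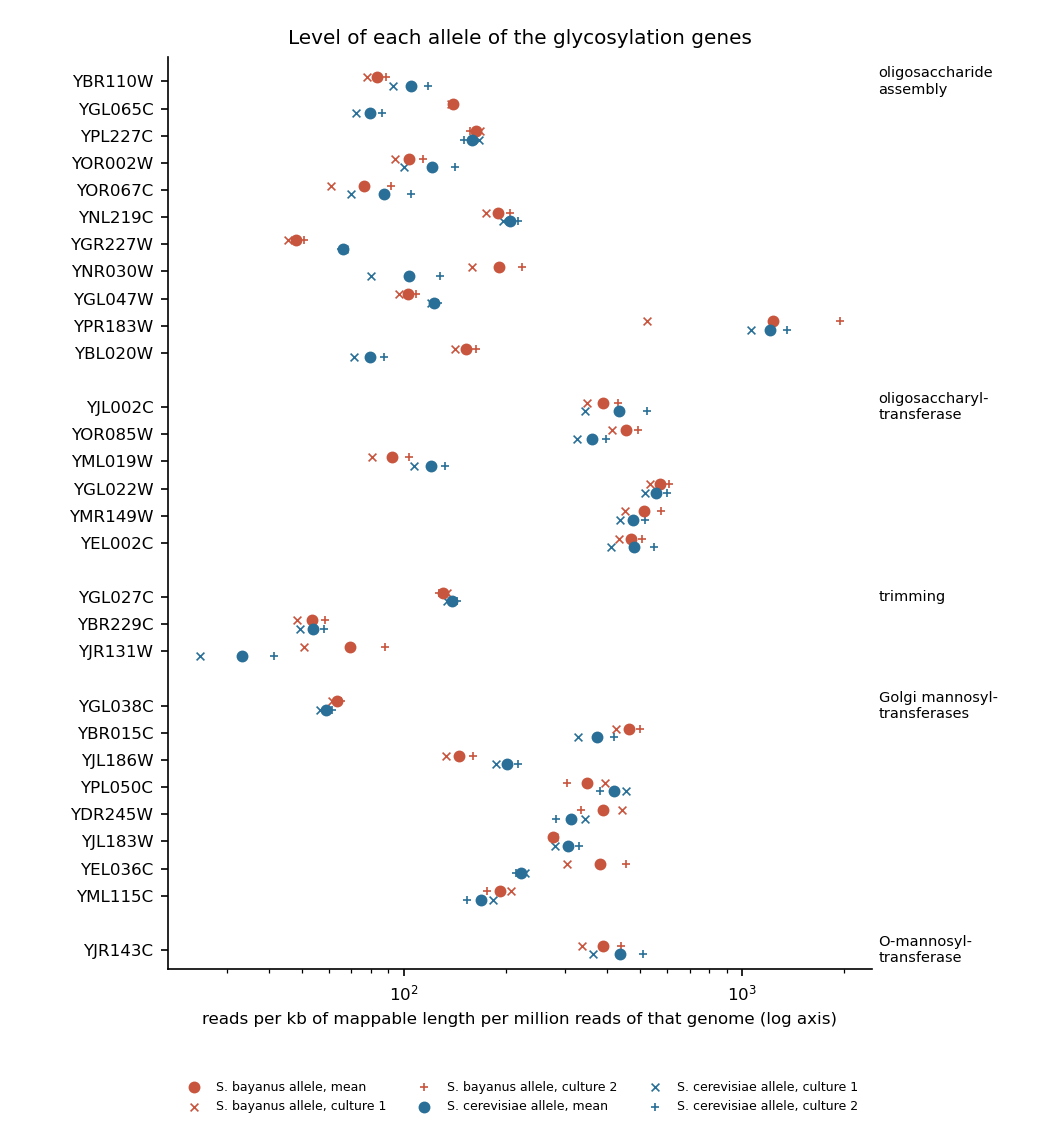
Level of the S. bayanus (red) and S. cerevisiae (blue) allele of each of the 29 genes, in reads per kilobase of mappable length per 1000000 reads of that genome, on a log axis. Filled circles are means of 2 cultures, crosses culture 1 and plus signs culture 2; most genes lie between 51.3 and 564 over both alleles, and YPR183W stands at 1220 with cultures far apart for its S. bayanus allele.

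For most glycosylation genes, as for most genes tested, no allele difference of 1.5-fold was called. The scaling centres the typical gene on equality. The lack of a call does not show equal expression. An allele difference was called in 13 of the 29 genes (44.8%), against 53.5% of all 4197 genes tested, by the quasi-likelihood test of edgeR at an adjusted p under 0.05. Of the 29, 8 were called toward S. bayanus, against 26.6% of all genes, and 5 toward S. cerevisiae, against 26.9%. The median log2 ratio, S. bayanus minus S. cerevisiae, was -0.02, against -0.0 over all genes tested. Its median size was 0.25 against 0.37 over all genes tested. Differences that were called and reached 1.5-fold numbered 5 of the 29, against 1244 of all 4197 genes (29.6%). All 5 were higher from S. bayanus, a call that 14.4% of all 4197 genes had. None was higher from S. cerevisiae, where the background was 15.2% and the largest ratio of the list was -0.47. Over all genes, 604 of the 1244 calls of this size went to S. bayanus and 640 to S. cerevisiae. The ratio had the same sign in both cultures for 26 of the 29 genes (89.7%), against 85.8% of all genes. DESeq2 called 6 of the 29, namely those 5 and YJL186W, against 35.3% of all genes. The edgeR test called 8 in the UCB lanes alone, against 48.1% of all genes, and 2, YGL065C and YBL020W, without the replicate block, against 20.6%. In the UCR lanes alone it called 14, against 2236 of 4127 genes tested there. With lanes as units it called 20, against 75.6% of all genes.

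**Figure D2:**
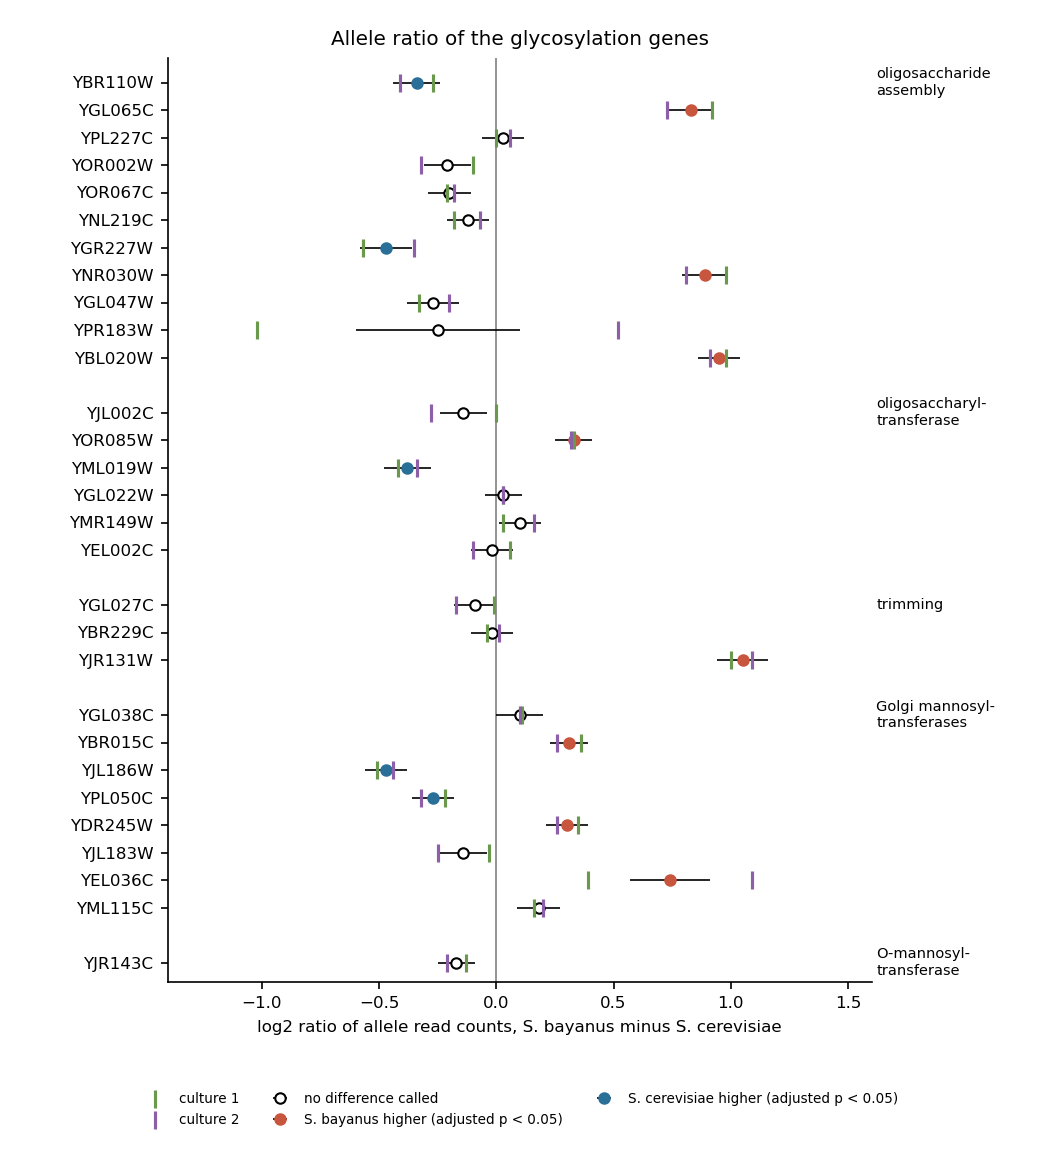
Log2 ratio of allele read counts, S. bayanus minus S. cerevisiae, for the 29 genes by class. Circles with bars are the fitted ratio and its standard error (2 cultures), filled red where the S. bayanus allele and blue where the S. cerevisiae allele was called higher by edgeR, and ticks mark each culture; the 5 genes past 1.5-fold all lie to the right, and the ticks of YPR183W lie on opposite sides of 0.

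Among the 11 assembly genes, 3 had a higher S. bayanus allele, 2 a higher S. cerevisiae allele and 6 were not called. The called share was 45.5%, against 53.5% of all genes tested, of which 26.6% went to S. bayanus and 26.9% to S. cerevisiae. YBL020W had the largest difference of the class, with 1627 S. bayanus reads and 770 S. cerevisiae reads in culture 1, and 1078 S. bayanus reads and 511 S. cerevisiae reads in culture 2. Its S. bayanus allele was higher in all 8 lanes, with log2 ratios between 0.81 and 1.30, and the fitted ratio was 0.95 (SE 0.09, edgeR adjusted p 0.00143, n = 2 cultures), or 1.93-fold. YNR030W had 1856 S. bayanus reads and 892 S. cerevisiae reads in culture 1, and 1492 S. bayanus reads and 769 S. cerevisiae reads in culture 2. Here too every lane had the higher S. bayanus allele, with ratios from 0.71 to 1.27, and the fit gave 0.89 (SE 0.10, edgeR adjusted p 0.00203). YGL065C had 1506 S. bayanus reads and 753 S. cerevisiae reads in culture 1, and 895 S. bayanus reads and 486 S. cerevisiae reads in culture 2. The lanes of YGL065C ran from 0.60 to 1.00, and its fitted ratio was 0.83 (SE 0.10, edgeR adjusted p 0.00237).

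The remaining called assembly genes leaned to S. cerevisiae and by less. YGR227W had 475 S. bayanus reads and 666 S. cerevisiae reads in culture 1, and 306 S. bayanus reads and 353 S. cerevisiae reads in culture 2. All 8 lanes of YGR227W were below 0, between -0.74 and -0.12, and the fitted log2 ratio was -0.47 (SE 0.11, edgeR adjusted p 0.0193). YBR110W had 737 S. bayanus reads and 839 S. cerevisiae reads in culture 1, and 481 S. bayanus reads and 575 S. cerevisiae reads in culture 2. Its lanes ran from -0.57 to -0.01 and its fitted ratio was -0.34 (SE 0.10, edgeR adjusted p 0.0353). Both calls were lost without a single lane, as YGR227W gave -0.41 without lane 7 (edgeR adjusted p 0.0559) and YBR110W gave -0.30 without lane 8 (edgeR adjusted p 0.0588). The 6 assembly genes with no call had ratios from -0.27 for YGL047W (SE 0.11) to 0.03 for YPL227C (SE 0.09). Among them YGL047W reached a call without lane 4, at -0.34 (edgeR adjusted p 0.0372). YPR183W, also with no call, had a fitted ratio of -0.25 with a large error (SE 0.35), since its ratio had opposite signs in the cultures.

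The 6 oligosaccharyltransferase genes had log2 ratios between -0.38 and 0.33. Only YOR085W and YML019W were called (33.3%, against 53.5% of all genes tested), and they lay on opposite sides of equality. YOR085W had 3064 S. bayanus reads and 2297 S. cerevisiae reads in culture 1, and 2110 S. bayanus reads and 1518 S. cerevisiae reads in culture 2. Its S. bayanus allele was higher in all 8 lanes, between 0.02 and 0.55, and the fitted ratio was 0.33 (SE 0.08, edgeR adjusted p 0.0236). YML019W had 548 S. bayanus reads and 671 S. cerevisiae reads in culture 1, and 407 S. bayanus reads and 449 S. cerevisiae reads in culture 2. The S. cerevisiae allele of YML019W was higher in all 8 lanes, between -0.53 and -0.26, with a fit of -0.38 (SE 0.10, edgeR adjusted p 0.0258). The other 4 subunits ranged from -0.14 for YJL002C (SE 0.10) to 0.10 for YMR149W (SE 0.09). The subunit with the most reads, YGL022W, had 7650 S. bayanus reads and 7061 S. cerevisiae reads in culture 1, and 5009 S. bayanus reads and 4434 S. cerevisiae reads in culture 2. After scaling for the reads of each genome, its ratio was 0.03 (SE 0.08, edgeR adjusted p 0.749).

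Among the 3 trimming genes only YJR131W was called (33.3%, against 53.5% of all genes tested). YJR131W had 594 S. bayanus reads and 283 S. cerevisiae reads in culture 1, and 595 S. bayanus reads and 255 S. cerevisiae reads in culture 2. Its log2 ratio was 1.00 in culture 1 and 1.09 in culture 2, and its 8 lanes ran from 0.78 to 1.27. The fitted ratio of 1.05 (SE 0.11, edgeR adjusted p 0.0017), or 2.07-fold, was the largest of the 29 genes and the only one past 2-fold. YGL027C had 2324 S. bayanus reads and 2210 S. cerevisiae reads in culture 1, and 1263 S. bayanus reads and 1284 S. cerevisiae reads in culture 2, a ratio of -0.09 (SE 0.09, edgeR adjusted p 0.453). YBR229C had 990 S. bayanus reads and 975 S. cerevisiae reads in culture 1, and 688 S. bayanus reads and 625 S. cerevisiae reads in culture 2, a ratio of -0.02 (SE 0.09, edgeR adjusted p 0.896). No allele difference was called in either, and their lanes lay on both sides of 0.

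Among the 8 Golgi mannosyltransferases, 3 had a higher S. bayanus allele, 2 a higher S. cerevisiae allele and 3 were not called. The called share was 62.5%, against 53.5% of all genes tested, of which 26.6% went to S. bayanus and 26.9% to S. cerevisiae. Of the 5 differences, 4 were under 1.5-fold. YEL036C was the only one past 1.5-fold, with a ratio of 0.74 (SE 0.17, edgeR adjusted p 0.0188), or 1.66-fold, and it differed between the cultures. YJL186W leaned to S. cerevisiae, with 1644 S. bayanus reads and 2213 S. cerevisiae reads in culture 1, and 1136 S. bayanus reads and 1389 S. cerevisiae reads in culture 2. Its 8 lanes were all below 0, between -0.67 and -0.32, and the fit was -0.47 (SE 0.09, edgeR adjusted p 0.00917). YBR015C had 5227 S. bayanus reads and 3872 S. cerevisiae reads in culture 1, and 3527 S. bayanus reads and 2677 S. cerevisiae reads in culture 2. Its lanes lay between 0.26 and 0.46, and its fitted ratio was 0.31 (SE 0.08, edgeR adjusted p 0.0248). YDR245W had a similar ratio of 0.30 (SE 0.09, edgeR adjusted p 0.0331), with 3418 S. bayanus reads and 2525 S. cerevisiae reads in culture 1. YPL050C had the smallest called difference of the list, -0.27 (SE 0.09, edgeR adjusted p 0.047), with 2972 S. bayanus reads and 3271 S. cerevisiae reads in culture 1 and all 8 lanes below 0.

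Some of the small Golgi differences were lost with single lanes. Without lane 7, YDR245W had a ratio of 0.29 (edgeR adjusted p 0.0502), just outside the threshold. YPL050C was not called without lane 1, 3, 5, 6 or 7, at log2 ratios of -0.26 to -0.28 and edgeR adjusted p of 0.0515 to 0.057. The 3 Golgi genes with no call were YGL038C at 0.10 (SE 0.10), YML115C at 0.18 (SE 0.09) and YJL183W at -0.14 (SE 0.10). The single O-mannosyltransferase in the table, YJR143C, had 5005 S. bayanus reads and 5159 S. cerevisiae reads in culture 1, and 3766 S. bayanus reads and 3926 S. cerevisiae reads in culture 2. Its S. cerevisiae allele was higher in all 8 lanes, between -0.27 and -0.04, but the fitted ratio of -0.17 (SE 0.08, edgeR adjusted p 0.126) was not called.

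The smaller calls were sensitive to a correction for base composition and to the scaling of the genomes. S. bayanus orthologs of the 29 genes had a GC content that differed from their S. cerevisiae counterparts by -1.32 to 12.2 percentage points. When the trend of the ratio over the GC difference of all genes was removed, 9 of the 29 were called, against 55.8% of all genes, 6 with the higher S. bayanus allele and 3 with the higher S. cerevisiae allele. The 5 genes past 1.5-fold and YJL186W were still called, and their ratios were 1.11 for YNR030W, 1.06 for YJR131W, 0.78 for YBL020W, 0.71 for YGL065C, 0.47 for YEL036C and -0.40 for YJL186W. Calls were lost for YBR110W (-0.14), YGR227W (-0.28), YOR085W (0.06), YML019W (-0.25), YBR015C (0.17), YPL050C (-0.06) and YDR245W (0.15). Calls were gained for YGL047W (-0.50), YPR183W (-0.64) and YML115C (0.40). With 1 library size for both alleles, which does not centre the typical gene on equality and moves the median of all genes to 0.11, 10 of the 29 were called, against 50.8% of all genes. Of these, 9 had the higher S. bayanus allele, and YJL186W had the higher S. cerevisiae allele. Over all genes, 61.9% of the calls then went to S. bayanus, against 49.8% as tested.

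The authors' deposited table gives each gene a call of its own, and for the 29 genes it held 9 genes with the higher S. bayanus allele, 1 with the higher S. cerevisiae allele and 19 without a call. Over all 4197 genes tested, the authors' calls were 1231 toward S. bayanus and 840 toward S. cerevisiae, with 2126 genes not called. For the 29 genes, their calls were the same as those of the edgeR test for 24 genes and opposite for none. Another 4 genes were called only by the edgeR test, all toward S. cerevisiae. YML115C was called toward S. bayanus only in the authors' deposited table.

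A wider hand-written list of 41 ORFs of the same pathway, covering dolichol synthesis, sugar nucleotides, quality control and further mannosyltransferases, had 33 ORFs in the table and 32 tested. An allele difference was called in 16 of these 32, against 53.5% of all genes tested, and their median log2 ratio was 0.15. The S. bayanus allele was called higher in 11 of the 32, against 26.6% of all genes, and the S. cerevisiae allele in 5, against 26.9%. Calls of at least 1.5-fold were found in 6 of the 32, against 29.6% of all genes. Such calls went to S. bayanus in 4 of the 32, against 14.4% of all genes, and to S. cerevisiae in 2, against 15.2%. The highest S. bayanus alleles belonged to YKL201C with a ratio of 1.89 (SE 0.09, edgeR adjusted p 0.000327), YHR204W with 1.10 (SE 0.10), YJL139C with 1.04 (SE 0.10) and YGR199W with 0.63 (SE 0.09). YKL201C had 1898 S. bayanus reads and 539 S. cerevisiae reads in culture 1, and 1066 S. bayanus reads and 311 S. cerevisiae reads in culture 2. The S. cerevisiae allele was higher for YIL014W, at -1.34 (SE 0.12, edgeR adjusted p 0.00115), and for YOR321W, at -1.04 (SE 0.10, edgeR adjusted p 0.00143).

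Whether the allele ratio was the same in both cultures was tested with the 16 lane and allele columns as units. Each culture gave 1 library, so the culture and its library cannot be told apart, and lanes are the only source of spread behind the p-values. The ratio differed in 4 of the 29 glycosylation genes (13.8%), against 17.9% of all genes tested. The shift, culture 1 minus culture 2, was large in the assembly gene YPR183W and the Golgi gene YEL036C, and small in YJL002C and YJL183W.

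YPR183W had 2913 S. bayanus reads and 5591 S. cerevisiae reads in culture 1, and 6190 S. bayanus reads and 3905 S. cerevisiae reads in culture 2. In culture 1 its log2 ratio was -0.98 and -1.06 in the UCR lanes and -1.03, -1.14 and -0.83 in the UCB lanes. In culture 2 it was 0.37 in the UCR lane and 0.22 and 0.83 in the UCB lanes. The ratio of 0.83 was in lane 4, where 53.4% of all reads were from S. bayanus, the highest share of any lane. The cultures did not overlap, and the higher allele was that of S. cerevisiae in every lane of culture 1 and that of S. bayanus in every lane of culture 2. The shift was -1.49 (SE 0.09, edgeR adjusted p 7.82e-14), which ranked 39 by size among all 4197 genes. The S. bayanus allele had the larger difference, with a level of 524 in culture 1 and 1940 in culture 2, a log2 difference of -2.01 after scaling. Its S. cerevisiae allele had a level of 1060 in culture 1 and 1360 in culture 2, a log2 difference of -0.47. With the lanes of 1 library as units, the ratio of YPR183W was 0.49 without culture 1 and -1.02 without culture 2. The pooled value of -0.25 therefore describes neither culture.

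**Figure D3:**
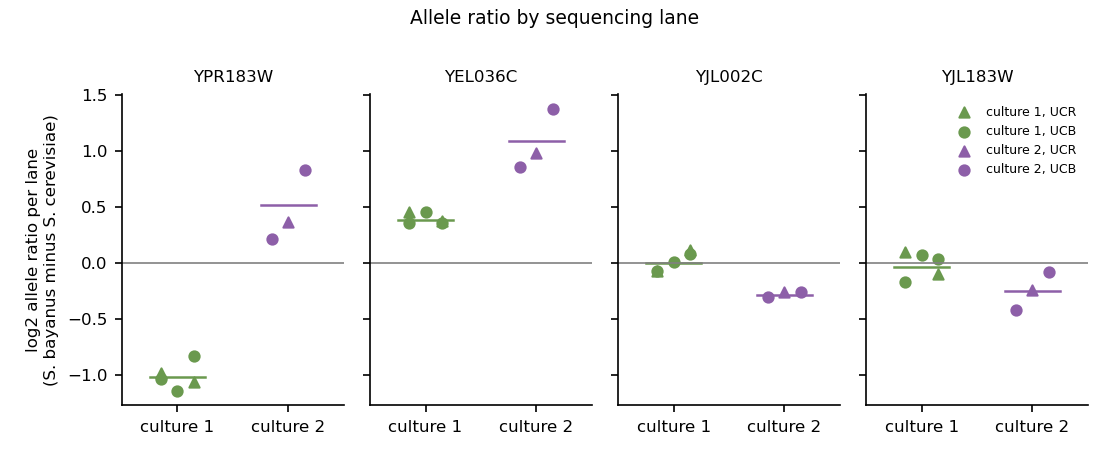
Log2 allele ratio, S. bayanus minus S. cerevisiae, in each sequencing lane of the 4 genes whose ratio differed between cultures. Triangles are UCR lanes and circles UCB lanes, green for culture 1 (5 lanes) and purple for culture 2 (3 lanes), and lines mark the ratio of the summed counts; YPR183W lies near -1.02 in culture 1 and 0.52 in culture 2, and the lanes of YJL183W overlap.

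YEL036C had 3003 S. bayanus reads and 2161 S. cerevisiae reads in culture 1, and 2596 S. bayanus reads and 1097 S. cerevisiae reads in culture 2. Its ratios in culture 1 were 0.46 and 0.38 in the UCR lanes and 0.36, 0.46 and 0.36 in the UCB lanes. In culture 2 they were 0.98 in the UCR lane and 0.86 and 1.38 in the UCB lanes, with the ratio of 1.38 again in lane 4. The S. bayanus allele was the higher one in every lane of both cultures, and the cultures did not overlap. The shift was -0.68 (SE 0.09, edgeR adjusted p 8.99e-07), with a ratio of 0.39 in culture 1 and 1.09 in culture 2. Between the cultures, the scaled level of the S. bayanus allele of YEL036C had a log2 difference of -0.71 and that of its S. cerevisiae allele one of -0.01.

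The other shifts had the opposite sign and were small. YJL002C had ratios of -0.07 to 0.12 in the lanes of culture 1 and -0.30 to -0.26 in those of culture 2, a shift of 0.29 (SE 0.06, edgeR adjusted p 0.00152). YJL183W had ratios of -0.17 to 0.10 in culture 1 and -0.42 to -0.08 in culture 2, where the lanes overlapped. Its shift of 0.24 (SE 0.08, edgeR adjusted p 0.0492) was lost under 13 of 15 alternatives, among them leaving out lane 3 (0.10), 2, 5, 6, 7 or 8. The remaining 25 genes had shifts between -0.19 for YGR227W and 0.23 for YOR002W.

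Both genes with a large shift had an S. bayanus ortholog richer in GC than its S. cerevisiae counterpart. The GC difference was 12.2 points in YPR183W, the highest of the 29 genes, and 8.66 points in YEL036C. YOR085W had a GC difference of 8.69 points and a shift of 0.03 (SE 0.09), and YGL047W one of 8.06 points and a shift of -0.11 (SE 0.16). Across the 29 genes the shift and the GC difference had a Pearson r of -0.638 and a Spearman rho of -0.4. Across all 4197 genes they had an r of -0.362 and a rho of -0.231. These correlations are across genes that share libraries and are given as a description. Of the 9 glycosylation genes in the upper quintile of the GC difference (at least 4.23 points), 2 had a called shift, against 36.8% of all 840 genes there. With the GC trend of each lane removed, YPR183W kept a shift of -0.76 (SE 0.05, edgeR adjusted p 3.58e-20) and YEL036C one of -0.31 (SE 0.07, edgeR adjusted p 0.00112). YOR085W then gained a call at 0.40 (SE 0.08, edgeR adjusted p 2.99e-05) and YGL022W one at 0.16 (SE 0.05, edgeR adjusted p 0.0106), and YJL183W lost its call. The part of GC content in these shifts was not tested further.

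**Figure D4:**
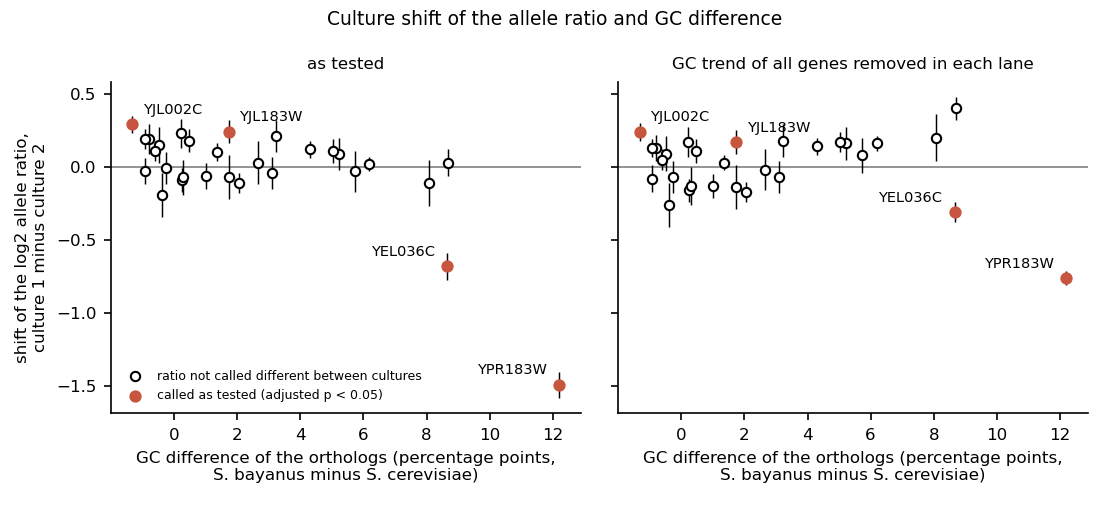
Shift of the log2 allele ratio, culture 1 minus culture 2, against the GC difference of the orthologs in percentage points, S. bayanus minus S. cerevisiae, for the 29 genes. Bars are standard errors over lanes, and filled points were called by edgeR; the left panel is as tested, with YPR183W at -1.49, and the right panel has the GC trend of all genes removed in each lane, with YPR183W at -0.76.

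The level of the genes in each culture was compared as a description with no test, since each culture gave 1 library, and the pattern was noticed after the values were seen. With TMM factors, both alleles were lower in culture 1 in 25 of the 29 genes (86.2%). Over all genes with reads from both alleles this held for 36.1%. In levels without these factors, an allele was higher in culture 1 in each of YEL036C, YGL027C, YJL183W and YGR227W. The S. cerevisiae allele of YEL036C, for example, had a level of 229 in culture 1 and 214 in culture 2. Lower transcript amounts of these genes per cell and a different makeup of the rest of the RNA cannot be told apart in such values. With both alleles together, the median log2 difference, culture 1 minus culture 2, was -0.37 for the 29 genes (1.3-fold lower in culture 1) and 0.01 for all genes. Without TMM factors the medians were -0.26 for the 29 genes and 0.12 for all genes. For both alleles together, 25 of the 29 lay below 0 with and without these factors. Over all 4194 genes with reads from both alleles, 2040 lay below 0 with TMM factors and 1509 without. With TMM factors, every lane of culture 1 was below every lane of culture 2 in 23 of the 29, against 25.4% of all genes. The lanes of culture 1 were all above those of culture 2 in 3, against 23.4% of all genes, and overlapped in 3. Lanes of 1 library are repeat runs, so their separation is no replication of the cultures.

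**Figure D5:**
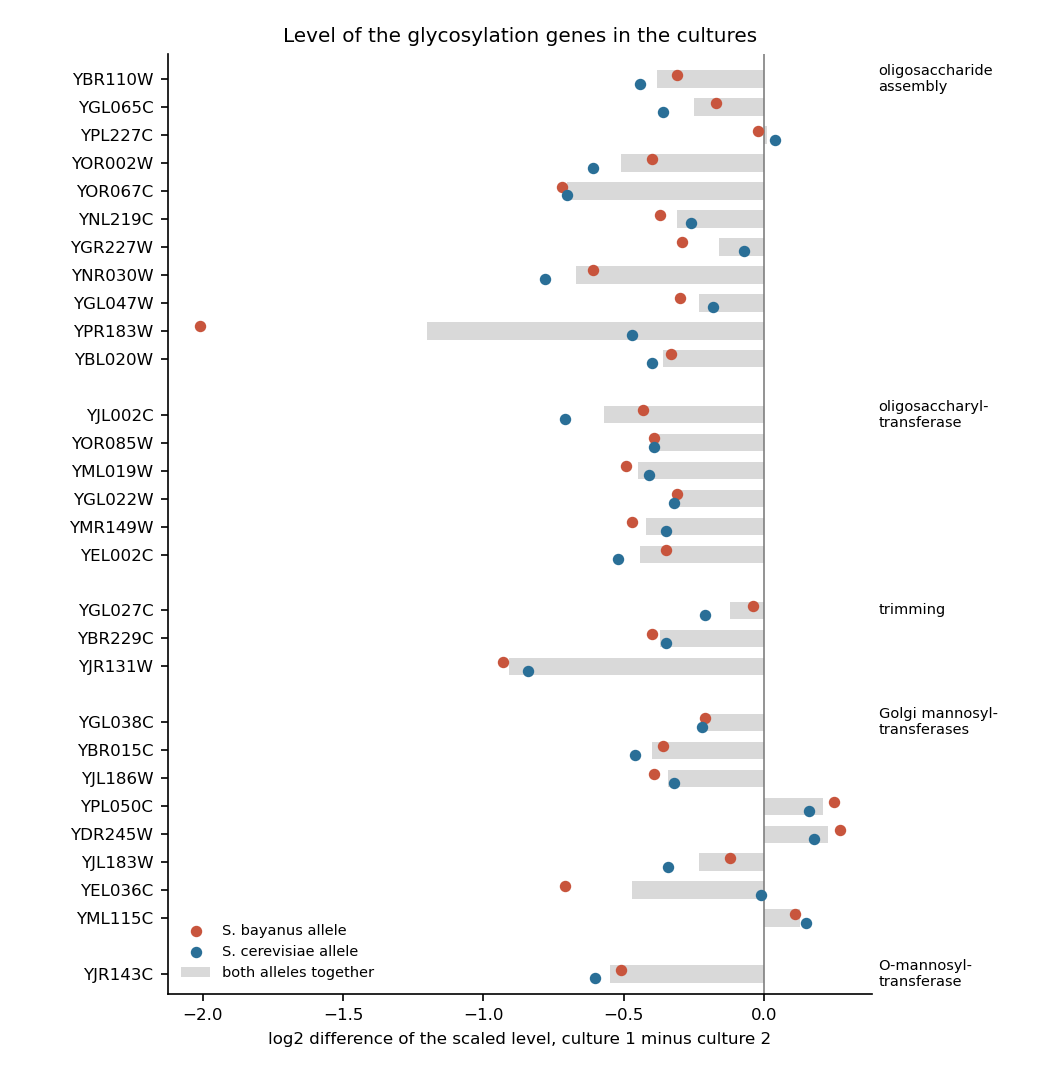
Log2 difference of the scaled level of each of the 29 genes, culture 1 minus culture 2, for the S. bayanus allele (red), the S. cerevisiae allele (blue) and both together (grey bars), with 1 library per culture and no error. Both alleles lie left of 0 in 25 genes and right of 0 in YPL050C, YDR245W and YML115C.

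The median log2 difference of both alleles together was below 0 in each class, between -0.22 for the Golgi mannosyltransferases and -0.55 for the O-mannosyltransferase, which is a single gene. In YPL227C the alleles had opposite signs, with -0.02 for S. bayanus and 0.04 for S. cerevisiae. Every lane of culture 1 was below culture 2 in all 6 subunits of the oligosaccharyltransferase, all 3 trimming genes and the O-mannosyltransferase. The same held for 9 of the 11 assembly genes, and over all genes for 25.4%. YPR183W had the largest difference, with 474 to 637 reads per 1000000 (median 594, both alleles together, TMM scaled) in the lanes of culture 1 and 1030 to 1540 (median 1310) in those of culture 2. YJR131W had 50.9 to 63.0 scaled reads in culture 1 and 98.3 to 114 in culture 2, a log2 difference of -0.91, and both of its alleles took part, with -0.93 for S. bayanus and -0.84 for S. cerevisiae. Its allele ratio was therefore nearly the same in both cultures. YGL022W, the oligosaccharyltransferase subunit with the most reads, had 904 to 1040 scaled reads in culture 1 and 1160 to 1240 in culture 2.

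Of the 8 Golgi mannosyltransferases, 4 had every lane of culture 1 below culture 2, 3 had every lane above and 1 overlapped. Over all genes, 25.4% had every lane below and 23.4% every lane above. The 3 above were YPL050C, with 397 to 439 scaled reads in culture 1 and 328 to 379 in culture 2, YDR245W, with 382 to 406 in culture 1 and 314 to 348 in culture 2, and YML115C, with 256 to 287 in culture 1 and 244 to 247 in culture 2. Their log2 differences were 0.21, 0.23 and 0.13. YBR015C of the same class was on the other side, with 536 to 642 scaled reads in culture 1 and 786 to 806 in culture 2. In the wider list, 18 of 32 genes (56.2%) had every lane of culture 1 below culture 2, against 25.4% of all genes. Every lane was above in 2 of them (6.25%), against 23.4% of all genes.

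The place of sequencing did not come with a called difference of the allele ratio. No gene of 4197 was called between UCR and UCB lanes by edgeR, a background of 0.0%, with 236 genes at an unadjusted p under 0.05, and DESeq2 called none either, with 19 at an unadjusted p under 0.05. Of the 29 glycosylation genes, 2 were under 0.05 unadjusted by edgeR and 0 by DESeq2, and the smallest edgeR adjusted p among them was 0.876.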

How the data were processed

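RNA of 2 cultures of a hybrid yeast was sequenced as 1 library each in 8 lanes. Raw counts of reads for each allele of a gene in each lane were deposited, with mappable lengths, a GC difference of the orthologs as a fraction, and a score by the authors of -1, 0 or 1 that is their call for a gene. Bowtie was used, per the submitters' processing notes; for its version, the genome builds, the annotation and the handling of reads that match both genomes, nothing is given in the sources used here. Another 4 deposited columns of per-sample sums were not used. Values of genes with near-identical paralogs or with overlapping ORFs are uncertain.

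Lanes were summed per culture and allele. The allele test was edgeR 4.0.16 (R 4.3.3, quasi-likelihood) on 4 columns with the culture as a block, TMM factors per column, and the log mappable length as an offset, for 4197 genes with 10 or more reads, both alleles together, in each culture. A difference was called at a Benjamini-Hochberg adjusted p under 0.05 over all genes tested. The block pairs the alleles read in the same library, and their level differences between cultures had a Pearson r of 0.578 across 4194 genes. The culture test was an allele by culture interaction over 16 lane columns with lane as a block, and the site test added an allele by site term. P-values of the allele test cover the spread between 2 cultures, and those of the culture and site tests the spread between lanes. The edgeR fits draw their variance estimates in part from all genes, so a standard error is not the spread of that gene alone. YGL022W, for example, had a log2 ratio of 0.03 in both cultures and an SE of 0.08. Levels are reads per kilobase of mappable length per 1000000 reads of that genome, with no test. Lane depth was 2350222 to 3159446 reads, which sets counting precision only. The GC trend was a lowess with a span of 0.5 over all genes. Alternatives were DESeq2 1.42.0, other scalings and filters, fits without the block or the length offset, lanes as units, each site alone, and each lane or culture left out. Reads are not independent molecules.

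The genes, the lists and the rule for naming were chosen with earlier results of these data known. Reads were given for genes called at 1.5-fold and for at least 2 genes of each class that holds several, and errors for other called genes. Strand was not used, and promoter sequences were not analysed here.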

Additional observations from a re-analysis of the deposited data

Results flagged for a closer look

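YGL047W had a log2 allele ratio of 0.05 in lane 5 of culture 1, far from the other lanes of that culture, which ran from -0.45 to -0.33. Its gap to the nearest lane was 0.752 of the whole range, above the limit of 0.71 for 5 values, in 1 of 29 groups of lanes looked at, and chance gives about 1 in 20. By the edgeR interaction test, the cultures differed in the allele ratio of 4 genes. The shift, culture 1 minus culture 2, was -1.49 in YPR183W, -0.68 in YEL036C, 0.29 in YJL002C and 0.24 in YJL183W. All 5 lanes of culture 1 lay on one side of all 3 lanes of culture 2 in the first 3 of these genes, and the lanes of YJL183W overlapped. Culture and library cannot be told apart.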

How the results depend on the processing

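All 4197 genes gave 2247 allele calls as tested, 1480 with DESeq2 and 866 without the replicate block. With lanes left out in turn they gave 2042 to 2381, and with 1 culture left out and lanes as units 2781 and 3244. Of the 29 glycosylation genes, 13 were called as tested, 6 with DESeq2, 2 without the replicate block, 20 with lanes as units, against 3172 of all genes (75.6%), and 8 in the UCB lanes alone, against 2014 of 4188 (48.1%). The UCR lanes alone gave 14, against 2236 of 4127 genes tested there. Leaving out single lanes gave 10 to 14, and leaving out a culture, with lanes as units, 21 without culture 1 and 19 without culture 2. YPR183W turned round, with a log2 ratio of -0.25 as tested and 0.49 without culture 1. The culture test called 752 genes as tested, 289 with DESeq2, 408 in the UCB lanes alone and 492 without the lane block, with 586 to 660 when lanes were left out. The share of these calls higher in culture 1 was 51.3% as tested, 38.5% with no filter, 37.7% at 50 reads or more and 35.6% with DESeq2. Of the 29 genes, 3 to 5 were called under each alternative. The cause of these changes was not tested. YGL065C and YBL020W were called under all 21 alternatives of the allele test, and YNR030W, YJR131W, YEL036C and YJL186W under 20, all but the fit without the replicate block. The median standard error of the 29 ratios was 0.09 from 2 cultures, and 1 library per culture limits every statement about cultures.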
